A study of Mus musculus with 13 samples.

Results

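Liver sections taken 48 h after partial hepatectomy were compared with sections labelled 0h, gene by gene and by position along the liver lobule. The 48h group and the 0h group each held 2 of the 13 sections of the series, which spans 7 times. All sections came from male C57BL/6 mice aged 2 months on regular chow, with no genetic change named in the labels. The labels state for both groups a partial hepatectomy that removed 2/3 of the liver, and they do not say whether the 0h livers were taken at the operation or what part of the liver was sectioned. The assay was Molecular Cartography, which images single RNA molecules of a set panel directly in frozen tissue through successive fluorescent labelling and imaging. The panel of 100 genes is made up largely of Wnt signalling genes and of hepatocyte genes with a known place in the lobule. Both 48h sections lay on slide 1, while the 0h sections lay on slides 1 and 2. The labels do not tie the sections to separate animals. The p-values therefore measure only the spread between sections, which may be technical.

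Of 42248 cells in the 4 sections, 39354 held at least 100 counts and were kept, out of 131221 cells in the series. The 48h sections kept 9163 and 9168 cells with 3199065 and 3475400 counts, against 10298 and 10725 cells with 3769150 and 3945457 counts in the 0h sections. The median cell had 339 and 368 counts at 48h and 334 and 339 counts at 0h. Sections of one group differed far beyond counting noise, with a root mean square log2 difference of 0.79 between the 48h sections and 1.21 between the 0h sections over the panel. Pairs of these sections shared at most 1 cell name, and none shared a cell with identical counts. In every section the cells were ranked by the share of their counts from Cyp2e1 and by the share from Pck1, and the difference of the ranks was divided into 5 equal parts, called zones. Zone 5 is the Cyp2e1-rich central end and zone 1 the Pck1-rich portal end. Counts were summed per section, or per section and zone, so that the section was the replicate.

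As background, blood enters the liver lobule at the portal tracts and leaves by the central vein, and hepatocytes along that path do different work. Portal hepatocytes make glucose and urea, whereas central hepatocytes make glutamine, detoxify foreign compounds and start bile acid synthesis. Wnt ligands from the endothelium around the central vein keep up the central programme through beta-catenin. After partial hepatectomy the remaining hepatocytes, which normally rest, re-enter the cell cycle and restore the mass of the liver while they go on with their metabolic work.

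All 3 mu-class glutathione transferases of the panel, enzymes that couple glutathione to electrophilic compounds, were called higher at 48h over all cells. RefSeq places their genes on the minus strand of chromosome 3 of GRCm38.p6, between positions 107963696 and 108017973. Whether other genes lie between these 3 was not checked. Their promoters are printed because the 3 genes rose together. Each run below is the 250 bases before the annotated start, taken from RefSeq, and capitals mark runs of at least 9 bases that occur in another of the 3 genes. The windows lie at chr3:107969175-107969424 for Gstm3, chr3:107986421-107986670 for Gstm2 and chr3:108017974-108018223 for the first start site of Gstm1.
Gstm3: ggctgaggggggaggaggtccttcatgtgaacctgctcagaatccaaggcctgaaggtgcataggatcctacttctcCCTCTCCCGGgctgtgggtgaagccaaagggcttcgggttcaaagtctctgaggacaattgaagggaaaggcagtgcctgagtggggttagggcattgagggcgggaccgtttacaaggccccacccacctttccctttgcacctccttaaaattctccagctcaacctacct
Gstm2: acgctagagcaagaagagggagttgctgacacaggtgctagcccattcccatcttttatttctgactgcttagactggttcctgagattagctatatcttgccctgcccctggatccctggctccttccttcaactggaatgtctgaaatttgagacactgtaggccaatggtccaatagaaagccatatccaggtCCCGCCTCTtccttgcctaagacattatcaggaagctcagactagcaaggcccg
Gstm1: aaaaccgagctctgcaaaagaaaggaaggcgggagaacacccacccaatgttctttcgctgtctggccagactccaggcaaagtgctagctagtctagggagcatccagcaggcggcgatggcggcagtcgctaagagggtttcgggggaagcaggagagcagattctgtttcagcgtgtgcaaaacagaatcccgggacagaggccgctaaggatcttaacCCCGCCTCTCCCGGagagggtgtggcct
Gstm1 carried a stretch of 14 bases in which 10 were shared with Gstm3 and 9 with Gstm2. The run of 10, CCTCTCCCGG, occurred on either strand in 0.204% of 27025 promoter windows of this length, and the run of 9, CCCGCCTCT, in 1.69%. Gstm3 and Gstm2 shared no run of 9 bases. The core of the antioxidant response element, TGACNNNGC on either strand, was in none of the 3 windows and in 10.1% of all promoter windows, which says only that these letters are absent from these windows.

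The zones followed the lobule in both groups. Cells around central veins were located independently as clusters of cells with the highest share of Glul, glutamine synthetase, which marks the hepatocytes next to the central vein. The median distance to such a cluster fell in order over zones 1 to 5, from 1576 to 307 and from 1948 to 312 coordinate units in the 48h sections, and from 1828 to 372 and from 1702 to 317 in the 0h sections. The labels and files do not give the length of a unit. Of the cells in zone 5, 76.8% and 76.3% at 48h and 65.6% and 74.2% at 0h were also in the nearest zone by this distance. Agreement was lower at the portal end, where 40.2% and 39.1% of zone 1 at 48h and 35.9% and 30.6% at 0h were in the farthest zone. In zone 3 it was lower still, at 32.0% and 29.0% at 48h and 27.7% and 26.5% at 0h. Cells placed at random in 5 equal zones would also agree in part. Cells without any Cyp2e1 count made up 51.5% and 37.3% of cells at 48h and 35.2% and 42.1% at 0h, so the cells of zones 1 and 2 were separated mainly by Pck1.

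**Figure D1:**
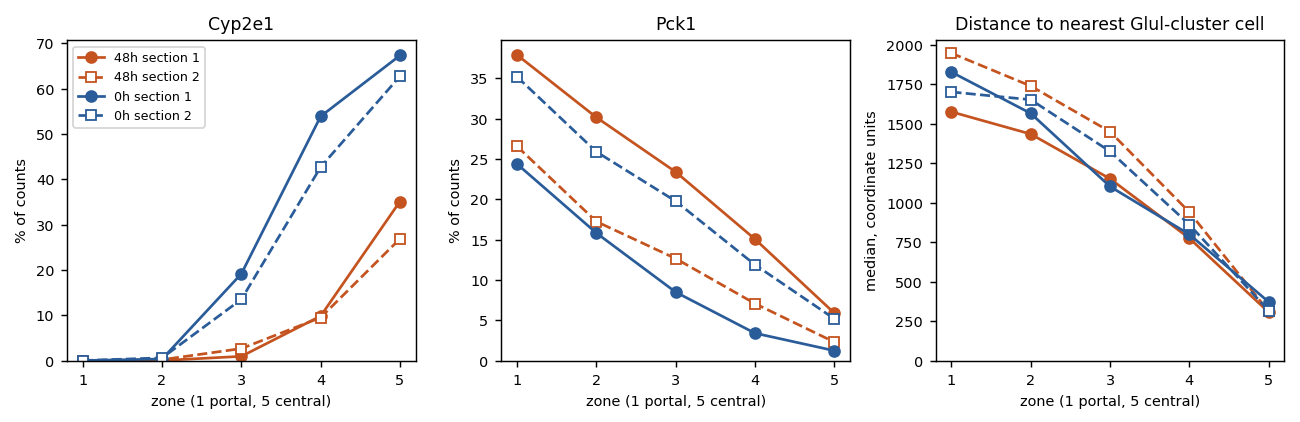
Share of counts from Cyp2e1 (left) and from Pck1 (middle), in percent, and median distance to the nearest cell of a Glul cluster in coordinate units (right), by zone in each section, with 48h sections in orange and 0h sections in blue. Filled circles with solid lines are section 1 and open squares with dashed lines section 2. The Cyp2e1 share in zone 5 is 35.1% and 26.9% at 48h and 67.3% and 62.7% at 0h, while the distances of the groups overlap in zone 1.

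Over all cells, the 3 glutathione transferases and 3 of 4 cyclins were higher at 48h, whereas Cyp2e1, an ethanol- and drug-oxidising cytochrome of central hepatocytes, and Cyp8b1, the sterol hydroxylase that directs bile acid synthesis to cholic acid, were lower. Of 99 genes tested, 21 were called (21.2%), with 10 higher (10.1%) and 11 lower (11.1%) at an adjusted p under 0.05 in edgeR's quasi-likelihood test. These counts rest on TMM scaling, which sets the bulk of the genes near no change and put the median log2 fold change at 0.16. Scaling to total counts put that median at 0.93 and gave 45 genes higher and 2 lower. A rise or fall below is therefore relative to the panel, and within these summed counts fewer cells of a type and less RNA per cell cannot be told apart.

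**Figure D2:**
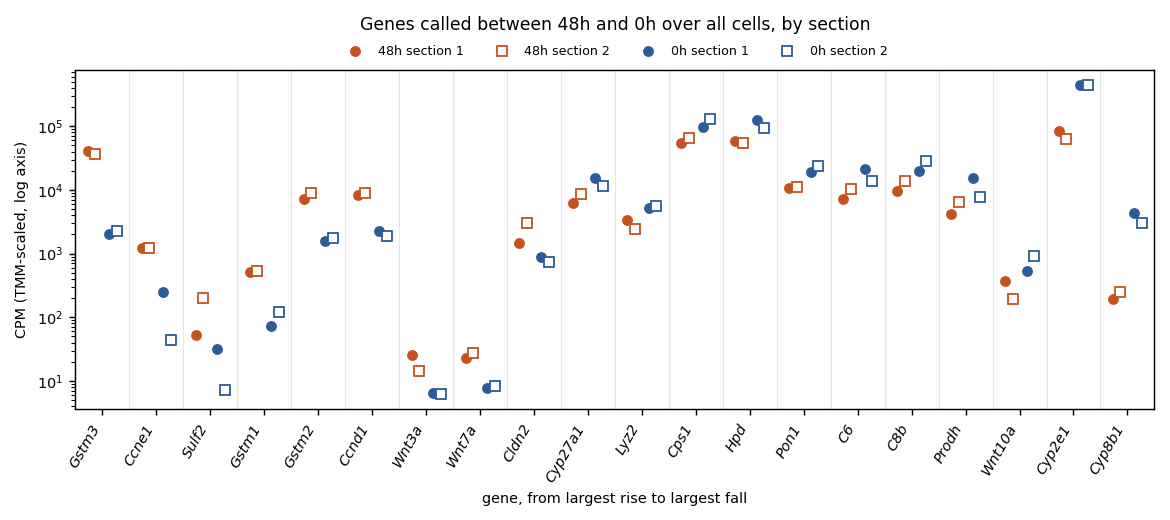
Level of each called gene over all cells in each section, in counts per 1000000 (CPM) after TMM scaling on a log axis, with 48h sections in orange and 0h sections in blue. Filled circles are section 1 and open squares section 2, and genes run from the largest rise to the largest fall. Ccna1, with 0 counts at 0h, cannot be drawn on a log axis and is left out. No gene shown has overlapping groups, but the genes shown were chosen by the test on these same sections.

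Gstm3 stood at 40697 and 37135 CPM in the 48h sections, against 2035 and 2232 CPM in the 0h sections (log2 fold change 4.19, SE 0.29, edgeR adjusted p = 3.17e-11). It took up 4.32% and 4.70% of all counts at 48h and 0.158% and 0.135% at 0h. Gstm2 had 7311 and 8908 CPM in the 48h sections, against 1574 and 1745 CPM in the 0h sections (log2 fold change 2.29, SE 0.29, edgeR adjusted p = 1.03e-06). The groups lay far apart for both genes, and sections within a group were close. Gstm1, the least abundant in counts, had 519.8 and 528 CPM in the 48h sections, against 74.3 and 122 CPM in the 0h sections (log2 fold change 2.42, SE 0.45, edgeR adjusted p = 0.00027). All 3 members of the mu-class list were called higher, with a median log2 fold change of 2.42 beside 0.16 over all genes tested. The genes are paralogs, and the labels and files do not say whether the probes of one can detect another.

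The G1 cyclins rose as well. Ccnd1, cyclin D1, which carries cells through G1, had 8478 and 9103 CPM in the 48h sections, against 2255 and 1861 CPM in the 0h sections (log2 fold change 2.09, SE 0.28, edgeR adjusted p = 3.09e-06). Ccne1, cyclin E1, which acts at entry into S phase, had 1246 and 1208 CPM in the 48h sections, against 254 and 44.8 CPM in the 0h sections (log2 fold change 3.04, SE 0.63, edgeR adjusted p = 0.00358). Its 0h sections differed by several fold, yet both lay far below the 48h sections. Ccna1, a cyclin A best known from the germ line, had 7 and 31 counts at 48h and 0 and 0 counts at 0h, at least 8.65-fold higher when 3 counts are set as the floor for both 0h sections together (edgeR adjusted p = 0.0033). Ccnb1, cyclin B1 of mitosis, had 28 counts at 48h and 3 counts at 0h in all, a ratio of 6.37 per count (exact 95% interval 1.97 to 32.8, counting error only), and did not pass (edgeR adjusted p = 0.101). In the cell cycle list 3 of 4 genes were thus called higher and none lower, where 10.1% of all genes tested were called higher.

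Among genes of central hepatocytes the changes went both ways. Of 19 listed genes 4 were called higher, namely the 3 transferases and Cldn2, and 2 lower, Cyp2e1 and Cyp27a1, with a median of 0.48. Over all genes tested 10.1% were called higher and 11.1% lower, with a median of 0.16. Cldn2, a claudin that forms water- and cation-conducting tight junctions, had 1445 and 3078 CPM in the 48h sections, against 899 and 739 CPM in the 0h sections (log2 fold change 1.46, SE 0.36, edgeR adjusted p = 0.00551). Cyp2e1 made up 8.90% and 7.98% of all counts at 48h, against 34.6% and 26.9% at 0h (log2 fold change -2.60, SE 0.27, edgeR adjusted p = 4.62e-08). Cyp27a1, the mitochondrial sterol 27-hydroxylase of the alternative bile acid route, had 6289 and 8552 CPM in the 48h sections, against 15155 and 11516 CPM in the 0h sections (log2 fold change -0.85, SE 0.28, edgeR adjusted p = 0.0327). Glul had 4657 and 9833 CPM in the 48h sections, against 8909 and 13461 CPM in the 0h sections and did not pass (log2 fold change -0.63, SE 0.34, edgeR adjusted p = 0.212). Other genes that did not pass were Cyp1a2, a cytochrome that oxidises caffeine and aryl amines, at -0.22, Oat, ornithine aminotransferase, at 0.78 and Lect2, a secreted leukocyte chemotactic factor, at 1.28 (edgeR adjusted p = 0.059). The call of Lect2 turned on the fit. It passed with total-count scaling at 1.97 (edgeR adjusted p = 0.0239), with slide as a block at 0.90 (0.023) and with 0h and 48h fitted alone at 1.28 (0.039), and on slide 1 alone it was at 0.71 without passing (0.326).

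Cyp8b1 fell to 192 and 253 CPM in the 48h sections, against 4359.6 and 3082 CPM in the 0h sections (log2 fold change -4.07, SE 0.40, edgeR adjusted p = 3.9e-08). This was the largest fall among the genes called, and the groups lay far apart. Cyp7a1, which catalyses the rate-limiting step of bile acid synthesis, was at -0.40 (SE 1.45) and did not pass, with sections of one group far apart at 309 and 2267 CPM in the 48h sections, against 3250.1 and 152 CPM in the 0h sections. Of 4 genes listed for bile acid and taurine synthesis, 2 were called lower, Cyp8b1 and Cyp27a1, and none higher, where 11.1% of all genes tested were called lower.

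Genes listed as portal and plasma protein genes shifted less. Of 11 genes in the portal list, 3 were called lower and none higher, with a median of -0.42, while 11.1% of all genes tested were called lower. Of the 3, Hpd and Prodh held more counts in zone 5 than in zone 1 in every section. At 0h Prodh had 5387 and 1741 counts in zone 1 and 13955 and 7802 in zone 5. Hpd had 64042 and 28782 in zone 1 and 75859 and 64028 in zone 5. Cps1, which makes carbamoyl phosphate for the urea cycle, had 55592 and 66484 CPM in the 48h sections, against 95812 and 129279 CPM in the 0h sections (log2 fold change -0.88, SE 0.25, edgeR adjusted p = 0.0115). Hpd, an enzyme of tyrosine breakdown, had 57874 and 54263 CPM in the 48h sections, against 125327 and 92957 CPM in the 0h sections (log2 fold change -0.96, SE 0.25, edgeR adjusted p = 0.00722), and Prodh, which begins proline breakdown, had a log2 fold change of -1.12 (SE 0.30). Of other enzymes known from the portal side, Ass1 and Arg1 of the urea cycle were at -0.50 and -0.42, and Gls2, the liver glutaminase, at 0.31, none of them called. Pck1, the cytosolic enzyme of gluconeogenesis, made up 23.0% and 13.1% of counts at 48h and 9.05% and 18.6% at 0h, with overlapping groups. G6pc, the catalytic subunit of glucose-6-phosphatase, had 14004 and 4866 CPM in the 48h sections, against 13955 and 111956 CPM in the 0h sections, so that one 0h section decided its mean, and it did not pass (edgeR adjusted p = 0.151).

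Of 7 listed complement and plasma protein genes, 3 were called lower, and none higher, where 11.1% of all genes tested were called lower. C8b, a chain of the membrane attack complex, had a log2 fold change of -1.03 (SE 0.27), C6 of the same complex -1.003 (SE 0.30), and Pon1, the paraoxonase of high-density lipoprotein, -0.97 (SE 0.26). These falls of about 1 on the log2 scale rest on the scaling. With total-count scaling the log2 fold changes were -0.27 for C6, -0.23 for C8b, -0.20 for Pon1, -0.09 for Cps1, -0.24 for Hpd, -0.40 for Prodh and -0.10 for Cyp27a1, and none passed. Cyp8b1 at -3.33 and Cyp2e1 at -1.86 passed under that scaling too.

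Few Wnt pathway genes were called over all cells with TMM scaling, and more with total-count scaling. Among 18 ligands tested, Wnt3a and Wnt7a were called higher and Wnt10a lower, with a median of 0.13. Wnt7a had 22.7 and 27.0 CPM in the 48h sections, against 7.84 and 8.37 CPM in the 0h sections (log2 fold change 1.62, SE 0.49, edgeR adjusted p = 0.0166), and Wnt3a 25.9 and 14.3 CPM in the 48h sections, against 6.47 and 6.28 CPM in the 0h sections (edgeR adjusted p = 0.0274). Both are scarce. The groups did not overlap, but the genes were picked by the test on these same sections. Both calls were lost with 0h and 48h fitted alone, Wnt3a at 1.63 and Wnt7a at 1.60 (edgeR adjusted p = 0.0632 for each). That of Wnt3a was also lost with section number as a block, at 1.69 (edgeR adjusted p = 0.0546). Both were kept with total-count scaling, at 2.36 and 2.38. Wnt10a had 366 and 191 CPM in the 48h sections, against 530.2 and 914 CPM in the 0h sections (log2 fold change -1.38, SE 0.41, edgeR adjusted p = 0.0151). Its call was lost with total-count scaling at -0.62, with 0h and 48h fitted alone at -1.40, with slide as a block at -1.10, on slide 1 alone at -0.88, without 48h section 2 at -0.93 and without 0h section 2 at -0.91. Of 12 frizzled and Lrp receptors and of 7 Wnt target and R-spondin module genes none was called. With total-count scaling, under which 45 of all 99 genes were higher, 8 ligands were called higher and none lower, Wnt2 and Wnt9b among them, as were 4 of the receptors, Fzd5 at 1.45 among them, and 3 of the target and R-spondin module genes. Among the target genes with TMM scaling, Axin2, a feedback target of beta-catenin, was at 0.03 and Lgr5, an R-spondin receptor of cells next to the central vein, at 0.77. The endothelial signals known from the central vein were not called with TMM scaling either, Wnt2 at 0.25, Wnt9b at 0.70 and Rspo3 at 0.31. Sulf2, an extracellular sulfatase that edits heparan sulfate, had 53.3 and 199 CPM in the 48h sections, against 32.0 and 7.11 CPM in the 0h sections (log2 fold change 2.67, SE 0.69, edgeR adjusted p = 0.0121). Its call was lost without 48h section 2 or without 0h section 2, when its log2 fold change was as low as 1.50.

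Lyz2, lysozyme of macrophages, had 3431 and 2456 CPM in the 48h sections, against 5124 and 5506 CPM in the 0h sections (log2 fold change -0.85, SE 0.30, edgeR adjusted p = 0.0388). The call was lost with total-count scaling at -0.12, with 0h and 48h fitted alone at -0.87, on slide 1 alone at -0.75, without 48h section 2 at -0.58 and without 0h section 2 at -0.79. The 2 macrophage markers summed to 4271 and 2922 CPM at 48h and 6192 and 6376 CPM at 0h, and Ptprc, the marker of all leukocytes, stood at 487 and 359 CPM at 48h and 679 and 1031 CPM at 0h. The 4 endothelial markers summed to 3619 and 3873 CPM at 48h and 3431 and 3181 CPM at 0h, the stellate marker Lrat stood at 2164 and 2615 CPM at 48h and 2199 and 2033 CPM at 0h, and the 2 biliary markers at 542 and 336 CPM at 48h and 348 and 336 CPM at 0h. No marker was at 0. The part of these cells in the results was not tested. Leaving out cells with at least 3 counts of markers of other cell types, 12 genes were called higher and 10 lower.

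Of the groups compared, 0h alone spans 2 slides. On slide 1 alone, where both 48h sections meet 0h section 1, Gstm3 was at 4.30, Gstm2 at 2.40, Gstm1 at 2.86, Ccnd1 at 2.00, Ccne1 at 2.32, Cyp2e1 at -2.55 and Cyp8b1 at -4.26, all passing the test, as did C6 and Prodh. Cldn2 at 1.36, Sulf2 at 2.00, Wnt3a at 1.67 and Wnt7a at 1.70 kept their direction and did not pass there, and nor did Ccna1 (edgeR adjusted p = 0.163). Among the falls, C8b at -0.72, Cps1 at -0.61, Hpd at -1.12, Pon1 at -0.75, Cyp27a1 at -0.99, Lyz2 at -0.75 and Wnt10a at -0.88 also kept their direction without passing.

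Within the zones, Gstm3, Gstm2, Ccnd1 and Ccne1 were called higher at 48h in all 5 and Gstm1 in zones 1 to 4. Several central genes were higher at 48h in the portal zones by Cyp2e1 and Pck1. Of these, Cyp1a2, Oat and Rgn changed sign in the farthest zone by distance to Glul clusters. Of 91 genes tested in zone 1, 20.9% were called, 11 higher (12.1%) and 8 lower (8.79%). Zone 2 had 22.3% of 94 genes called, 11 higher (11.7%) and 10 lower (10.6%). In zone 3, 16% of 94 genes were called, 8 higher (8.51%) and 7 lower (7.45%). In zone 4, 23.2% of 95 genes were called, 14 higher (14.7%) and 8 lower (8.42%). Zone 5 had the fewest calls, 13% of 92 genes, 6 higher (6.52%) and 6 lower (6.52%). With total-count scaling these were 11 and 1, 11 and 1, 21 and 2, 45 and 2, and 60 and 3. On slide 1 alone they were 13 and 8, 7 and 6, 1 and 2, 0 and 0, and 6 and 10, and the fit of zone 4 that gave 0 calls in edgeR had 20 of 84 genes at an unadjusted p under 0.05. All zones come from the same sections, so their values are given side by side and are not independent.

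**Figure D3:**
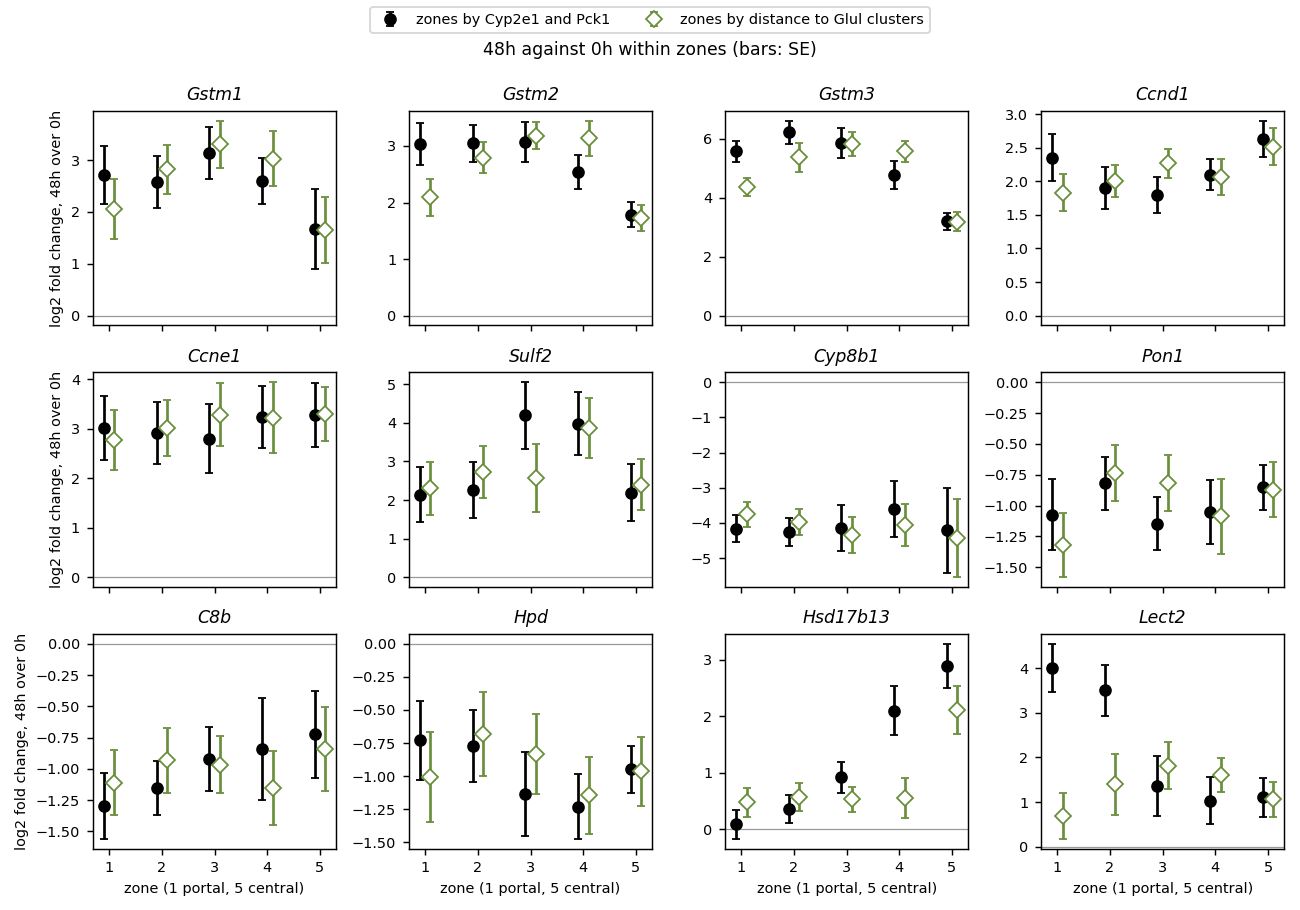
Log2 fold change of 48h over 0h within each zone, from zone 1 (portal) to zone 5 (central), for 12 genes, with bars for the SE. Black circles use zones by Cyp2e1 and Pck1, and open green diamonds zones by distance to Glul clusters. Gstm3 lies between 3.20 and 6.22 on the black circles, Hsd17b13 climbs towards zone 5, and Lect2 stands out in zones 1 and 2 on the black circles but not on the diamonds.

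Gstm3 was called in every zone, with log2 fold changes of 5.57, 6.22, 5.86, 4.77 and 3.20 from zone 1 to zone 5. In zone 1 it had 8101 and 11740.5 CPM in the 48h sections, against 263 and 152 CPM in the 0h sections, and in zone 5 59145 and 49885 CPM in the 48h sections, against 4546 and 7359 CPM in the 0h sections. At both ends the groups were widely apart. Levels are scaled within a zone, so they are not compared between zones here. Gstm2 was called in every zone too, at 3.04, 3.05, 3.08, 2.53 and 1.78. Gstm1 was called in zones 1 to 4, at 2.71, 2.57, 3.14 and 2.60, and in zone 5 it had 465 and 573 CPM in the 48h sections, against 46.1 and 283 CPM in the 0h sections and did not pass (log2 fold change 1.66, SE 0.77, edgeR adjusted p = 0.169).

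Ccnd1 rose in every zone, at 2.35, 1.90, 1.80, 2.10 and 2.63, and so did Ccne1, at 3.01, 2.91, 2.80, 3.23 and 3.28. For Ccnd1 the level was 3356 and 4962 CPM in the 48h sections, against 1039 and 584 CPM in the 0h sections in zone 1. In zone 5 it was 6577 and 4924 CPM in the 48h sections, against 787 and 1071 CPM in the 0h sections. For Ccne1 the portal zone had 900.4 and 1659 CPM in the 48h sections, against 271 and 39.1 CPM in the 0h sections, and the central zone 828 and 545 CPM in the 48h sections, against 116 and 23.5 CPM in the 0h sections. The difference between zones 5 and 1 in the change of either cyclin was not called (edgeR adjusted p = 0.964 for Ccnd1 and 0.951 for Ccne1). Ccne1 lost its call in zone 1 without 48h section 2, and in zones 3, 4 and 5 without 48h section 1.

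Several genes known from central hepatocytes were higher at 48h in the portal zones by Cyp2e1 and Pck1. Cyp2e1 was itself lower at 48h, so these zones need not hold the same cells in both groups. In the farthest zone by distance to Glul clusters, Cyp1a2 was at -0.52, Oat at -0.46 and Rgn at -0.81, none of them called. The values that follow are for zones by Cyp2e1 and Pck1. In zone 1, Lect2 had 326 and 781 CPM in the 48h sections, against 36.4 and 31.8 CPM in the 0h sections (log2 fold change 4.01, SE 0.53, edgeR adjusted p = 1.83e-05). Oat had 286 and 481 CPM in the 48h sections, against 85.4 and 34.2 CPM in the 0h sections (log2 fold change 2.64, SE 0.53, edgeR adjusted p = 0.00113). Rgn, regucalcin, a calcium-binding lactonase, had 805 and 861 CPM in the 48h sections, against 189.9 and 254 CPM in the 0h sections (log2 fold change 1.91, SE 0.38, edgeR adjusted p = 0.00113). Cyp1a2 had 1825 and 2422 CPM in the 48h sections, against 831 and 332 CPM in the 0h sections (log2 fold change 1.86, SE 0.41, edgeR adjusted p = 0.00226). All 4 were called in zone 2 as well, at 3.51, 1.97, 1.46 and 1.43, and none in zones 3 to 5, where Cyp1a2 and Rgn ran between -0.64 and -0.26. Cldn2 was called in zones 1, 2 and 4, at 2.43, 2.49 and 1.34. Of the central gene list, 8 of 18 tested genes were called higher and 1 lower in zone 1, 8 and 1 of 19 in zone 2, 3 and 1 of 18 in zone 3, 4 and 1 of 19 in zone 4 and 2 and 1 of 19 in zone 5. The gene called lower was Cyp27a1 in zones 1 and 2 and Cyp2e1 in zones 3 to 5. Cyp2e1 helped to set the zones, so its calls there are no separate finding. Over all genes tested, 12.1%, 11.7%, 8.51%, 14.7% and 6.52% were called higher in zones 1 to 5. The shares called lower were 8.79%, 10.6%, 7.45%, 8.42% and 6.52%. In zone 1 the calls of Cyp1a2, Oat and Gstm1 were lost without 48h section 2.

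The levels in portal zones can be set beside those of cells with no Cyp2e1 count. Among such cells Lect2 made up 0.729 and 1.59 per 1000 counts at 48h and 0.0606 and 0.0259 at 0h. Cyp1a2 made up 3.18 and 4.32 per 1000 counts at 48h and 1.16 and 0.284 at 0h, and Gstm3 13.4 and 19.4 at 48h and 0.285 and 0.104 at 0h. For each of these genes both 48h sections lay above both 0h sections. They were called in the portal zones of the same sections, so this adds no separate support. Cyp2e1 itself was lower at 48h, so a cell with no Cyp2e1 count need not have the same position in both groups.

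Of the 11 genes in the portal list, Hsd17b13 alone was called higher in zones 3 to 5, and none in zones 1 and 2. Over all genes tested, 8.51%, 14.7% and 6.52% were called higher in zones 3 to 5. Called lower were Cps1 and Prodh in zones 1 and 2, Hpd in zone 3, Hpd and Prodh in zone 4, and Cps1, G6pc and Hpd in zone 5. The shares of all genes tested called lower were 8.79%, 10.6%, 7.45%, 8.42% and 6.52% in zones 1 to 5. Hpd and Prodh held more counts in zone 5 than in zone 1, as given above. Hsd17b13, a lipid droplet enzyme abundant in portal hepatocytes, had 377 and 483 CPM in the 48h sections, against 57.2 and 58.6 CPM in the 0h sections in zone 5 (log2 fold change 2.89, SE 0.40, edgeR adjusted p = 0.000911). It was also called in zone 4 at 2.10 and zone 3 at 0.92, and lay at 0.09 in zone 1, where it was most abundant. Elovl2, an elongase of polyunsaturated fatty acids that is not in the portal list, was called in zone 4 at 1.05 (SE 0.25) and zone 5 at 1.08 (SE 0.30). The call of Elovl2 in zone 5 was lost without 48h section 1, 48h section 2 or 0h section 2.

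Genes that fell were spread over the zones. Cyp8b1 was called in zones 1 to 4, at -4.17, -4.26, -4.14 and -3.60, and in zone 5, where it had 25.5 and 121 CPM in the 48h sections, against 2484 and 246 CPM in the 0h sections, it did not pass (edgeR adjusted p = 0.0578). Its 0h sections in zone 5 were far apart. Pon1 was called in every zone, between -1.15 and -0.82. C8b was called in zones 1 to 3, at -1.30, -1.15 and -0.92, and C6 in zones 1, 4 and 5, at -0.94, -1.04 and -1.35. Hpd was called in zones 3 to 5, at -1.13, -1.23 and -0.95, Prodh in zones 1, 2 and 4, at -1.12, -1.22 and -1.48, and Cps1 in zones 1, 2 and 5, at -0.96, -0.76 and -1.02. Cyp27a1 was called in zones 1 and 2, at -1.21 and -1.12. Cyp2e1 helped to set these zones, so its calls within them, named below, are no separate finding. With total-count scaling 1, 1, 2, 2 and 3 genes were called lower in zones 1 to 5, and these were Cyp8b1 in all 5, Cyp2e1 in zones 3 to 5 and G6pc in zone 5. Under that scaling Pon1, Cps1 and Hpd turned to 0.28, 0.11 and 0.17 in zone 5 and C6 and Pon1 to 0.065 and 0.082 in zone 4. Without 48h section 1, 2 genes were called lower in zone 1, Cyp8b1 among them, and Cyp2e1 alone in zone 4.

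G6pc was called in zone 5 alone, with 3346 and 1404 CPM in the 48h sections, against 6738 and 28252 CPM in the 0h sections (log2 fold change -2.88, SE 0.69, edgeR adjusted p = 0.0279). The call was lost without 48h section 2 or without 0h section 2. Mogat1, an enzyme of triglyceride synthesis, was called in zone 2 on 6 and 9 counts at 48h and 16 and 24 counts at 0h. Its call was lost without 48h section 1, 48h section 2 or 0h section 2.

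With TMM scaling, Wnt pathway genes were called mainly in zone 4, the zone with the most genes called higher, 14.7% of 95 genes tested. There 3 of 16 ligands and 1 of 12 frizzled and Lrp receptors were called higher, and 0 of 7 target and R-spondin module genes. In zone 4 Wnt3a had 40.4 and 15.7 CPM in the 48h sections, against 1.68 and 6.33 CPM in the 0h sections, at a log2 fold change of 2.82. Its counts there were 29 and 15 at 48h and 1 and 3 at 0h. In that zone Wnt7a was at 2.52, Wnt5b at 1.48, the R-spondin receptor Lgr4 at 1.33 and the Wnt receptor Fzd5 at 1.00. Wnt5a was called in zone 3 at 1.49, and Wnt10a in zones 1 and 2 at -1.46 and -1.40. Each of these calls was lost when at least 1 section was left out, Wnt3a without 48h section 1 or either 0h section, Wnt7a without either 48h section or 0h section 1, Wnt5b without 48h section 2 or either 0h section, Lgr4 without either 48h section or 0h section 2, Fzd5 without 48h section 1 or either 0h section, and Wnt5a without 48h section 1. With p-values adjusted over the 5 zones together, an alternative added after the data were seen, the calls of Wnt3a, Wnt5b, Lgr4 and Fzd5 in zone 4 were lost (edgeR adjusted p = 0.053 to 0.0586), and 10 genes were higher there. With total-count scaling zone 5 had more Wnt pathway calls than zone 4. There 8 of 15 ligands, 7 of 10 receptors and 6 of 7 target and R-spondin module genes were called higher. Zone 4 then had 5 of 16, 5 of 12 and 4 of 7. Under that scaling 60 of 92 genes tested were higher in zone 5 and 45 of 95 in zone 4. Sulf2 was called with TMM scaling in zones 1 to 4, at 2.14, 2.27, 4.19 and 3.98.

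Lyz2 was called lower in zones 2 to 4, at -1.17, -1.06 and -1.10, and Ptprc in the same zones at -1.20, -1.18 and -1.05. In zone 5 the groups overlapped for both. Lyz2 had 3878 and 1448 CPM in the 48h sections there, against 1292 and 3262 CPM in the 0h sections. Ptprc had 439 and 161 CPM in the 48h sections, against 216 and 707 CPM in the 0h sections. The 2 macrophage markers summed to 2946 and 4103 CPM at 48h and 9388 and 6221 CPM at 0h in zone 2, and to 4614 and 1647 CPM at 48h and 1553 and 3683 CPM at 0h in zone 5. In zone 4 every one of the 4 sections, left out in turn, ended the call of Lyz2, and with total-count scaling Lyz2 in zone 4 stood at 0.00048 and Ptprc at 0.070.

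The change in the difference between the central and the portal zone was tested within sections. Of 94 genes, 7 were called (7.45%), 1 of them with a higher central-over-portal log2 ratio at 48h (1.06%) and 6 with a lower one (6.38%). With total-count scaling 5 were higher and 2 lower, and on slide 1 alone 1 was higher and 7 lower. Cyp2e1 and Pck1, which set the zones, are not reported in this comparison.

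**Figure D4:**
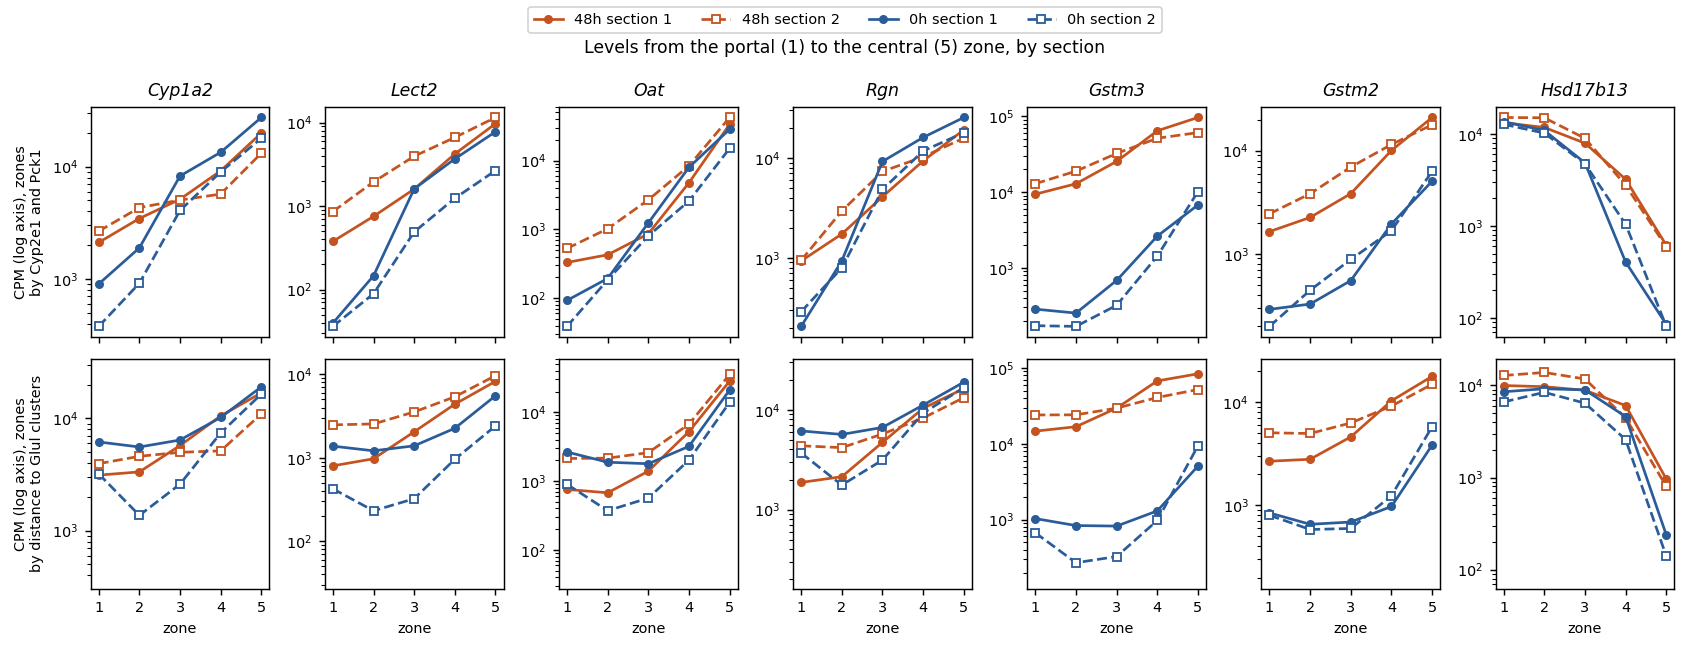
Levels from the portal (1) to the central (5) zone in each section, in CPM with one scaling over all zones on a log axis, for the 7 genes whose central-over-portal ratio changed, with 48h sections in orange and 0h sections in blue. In the top row, with zones by Cyp2e1 and Pck1, the 48h lines of Cyp1a2, Lect2, Rgn and Gstm3 are flatter than the 0h lines. In the bottom row, with zones by distance to Glul clusters, Gstm3 and Gstm2 at 48h lie above 0h throughout, and the lines of Cyp1a2, Oat and Rgn cross or overlap.

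Cyp1a2 had a log2 central-over-portal ratio of 2.70 and 2.09 in the 48h sections, against 4.88 and 5.46 in the 0h sections (a change of -2.77, SE 0.39, edgeR adjusted p = 0.000138). Rgn had 3.82 and 3.84 in the 48h sections, against 6.90 and 5.85 in the 0h sections (a change of -2.55, SE 0.44, edgeR adjusted p = 0.000544), and Lect2 4.15 and 3.53 in the 48h sections, against 7.55 and 6.05 in the 0h sections (a change of -3.09, SE 0.56, edgeR adjusted p = 0.000745). Oat remained the steepest of these at 48h, with 6.13 and 6.10 in the 48h sections, against 8.21 and 8.45 in the 0h sections (a change of -2.22, SE 0.46, edgeR adjusted p = 0.00198). For each of the 4 genes both 48h ratios were lower than both 0h ratios. These genes were picked by the test of the same ratios, so this adds no support to the calls. Gstm3 had 2.82 and 2.02 in the 48h sections, against 4.52 and 5.77 in the 0h sections (a change of -2.71, SE 0.47, edgeR adjusted p = 0.000544), and Gstm2 3.14 and 2.65 in the 48h sections, against 4.09 and 4.89 in the 0h sections (a change of -1.59, SE 0.44, edgeR adjusted p = 0.0272). Hsd17b13 ran the other way along the lobule, with -4.96 and -4.89 in the 48h sections, against -7.34 and -7.37 in the 0h sections (a change of 2.45, SE 0.46, edgeR adjusted p = 0.000801). Cldn2 changed by -1.87 without passing (edgeR adjusted p = 0.129). Without 48h section 2 the calls of Gstm3, Gstm2 and Oat were lost, at -2.13, -1.17 and -1.999.

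This comparison depends on how position is read. When the zones were made from the distance to the nearest Glul cluster, a ranking added after the data were seen that uses neither Cyp2e1 nor Pck1, 1 of 95 genes was called. Gstm3 remained called at -1.57 (SE 0.35, edgeR adjusted p = 0.0273). Hsd17b13 kept its direction at 1.31 without passing, as did Gstm2 at -0.70 and Cyp1a2 at -0.37, whereas Lect2 at 0.071, Rgn at 0.13 and Oat at 0.84 changed sign. In the farthest zone by distance, Cyp1a2 was at -0.52, Oat at -0.46 and Rgn at -0.81, and Lect2 at 0.69 kept its direction, none of them called. Lect2 was called higher in zones 3 and 4 by distance, at 1.82 and 1.61. The farthest zone was also not the poorest in Cyp2e1. It had 7395 and 16098 CPM at 48h and 255766 and 204236 CPM at 0h, against 7116 and 13064 CPM at 48h and 208193 and 103407 CPM at 0h in the next one. Ranking cells by Cyp1a2 and Gls2 instead of Cyp2e1 and Pck1 gave 1 call, Gstm3 at -2.65, with Lect2 at -1.88, Oat at -1.28, Rgn at -1.53 and Hsd17b13 at 0.97 keeping their direction.

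By distance Cyp2e1 could itself be tested, because it did not set those zones. It was lower at 48h in every one, at -4.44, -3.81, -3.11, -3.03 and -2.10 on the log2 scale from the farthest to the nearest, each called. The change between the nearest and the farthest zone was 1.97 and did not pass (edgeR adjusted p = 0.0506). Cells with at least 10 Cyp2e1 counts made up 36.5% and 45.0% of cells at 48h and 56.2% and 51.4% at 0h, and their median distance to a Glul cluster was 507 and 703 units at 48h and 747 and 726 units at 0h. Gstm3 at 4.38, 5.37, 5.83, 5.57 and 3.19, Gstm2 at 2.09, 2.79, 3.18, 3.14 and 1.72, Ccnd1 and Ccne1 were higher and Cyp8b1 and Pon1 lower in every zone by distance. Hsd17b13 was called in the nearest zone alone, at 2.11, and Cldn2 in all 5, between 1.06 and 1.97.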

How the data were processed

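Sections of 7 times after partial hepatectomy were measured by Molecular Cartography. Per the file headers, the deposited tables give whole-number transcript counts by gene and by cell for all 13 sections. Lists of transcript positions were used for 12. The assay was run by the company's protocol, per the labels' protocols. Decoding and cell outlining are not described in the labels or headers.

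Cells with at least 100 counts were ranked within each section and cut in 5 zones as described above. Counts were summed per section and zone. The sections of 24 h carry one slide position and no number and were summed, giving 12 libraries. A gene entered a fit when 2 or more libraries held 10 or more of its counts. The test was the robust quasi-likelihood F test of edgeR 4.0.16 (R 4.3.3) after TMM scaling. Time was the only term, all 7 times shared one estimate of the spread, and 5 degrees of freedom remained. The contrast was 48h minus 0h, and p-values were Benjamini-Hochberg adjusted over all genes of a fit. The SE is the absolute log2 fold change over the root of F. CPM are counts per 1000000 of the TMM-scaled total. The central-minus-portal fit held zones 1 and 5 with section as a block and the zone by time term. Glul clusters are cells in the top 3% of Glul share with at least 1 of their 6 nearest cells also there. Cell positions were read from the cell names, of which the second number is x, as the tile shares of Cyp2e1 matched those of the transcripts with r of 0.992 to 0.997.

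Named genes were the 12 largest rises and 12 largest falls called over all cells, the 5 largest each way in each zone, genes called only in a zone, the 6 largest each way in the central-minus-portal fit, up to 2 further genes per list and a preset set of zonal, cyclin and Wnt genes. The members, the lists and this rule were chosen with earlier results of these data known. In simulated data (20 sets), the all-cell fit of 98 genes recovered 31.1% of log2 changes of 1 and 91.3% of changes of 2, and the central-minus-portal fit of 93 genes 7.37% and 42.9%. Unchanged genes were called in 0.513% and 0.477% of cases. Every simulated gene had the same dispersion, 0.0851, the median of the all-cell fit, in the zone libraries too. The real 0h sections differed by a root mean square log2 of 1.21 over all cells and 1.35 to 1.74 within zones. These rates therefore need not hold for the real genes.

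The numbers of the sections were checked for pairing between the groups. The deviations of same-numbered sections from their group means correlated at -0.515 between 48h and 0h over 99 genes, so the numbers were not used to pair them. Alternatives covered scaling, filters, the cell minimum, blocks, left-out sections, DESeq2 1.42.0, limma 3.58.1 and other ways to place cells. Distance to Glul clusters, adjustment over the 5 zones together and the crossed pairing were added after the data were seen. Promoter sequences came from RefSeq (GRCm38.p6), in which all 100 panel symbols were found.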

Additional observations from a re-analysis of the deposited data

Results flagged for a closer look

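In 7 genes the effect of 48h against 0h differed between the central and the portal zone by the test of that difference. The change in the log2 central-over-portal ratio was -3.09 for Lect2, -2.77 for Cyp1a2, -2.71 for Gstm3, -2.55 for Rgn, -2.22 for Oat, -1.59 for Gstm2 and 2.45 for Hsd17b13. Over all 4 sections each gene had both 48h ratios on one side of both 0h ratios. The genes were picked by the test of these same ratios, so this adds no support to the calls. By distance to Glul clusters the same values were 0.071, -0.37, -1.57, 0.13, 0.84, -0.70 and 1.31, of which that of Gstm3 passed (edgeR adjusted p = 0.0273). No group held 4 or more sections, so no search for single outlying sections was made.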

How the results depend on the processing

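Counts are given as genes higher and lower, for all cells, zones 1 to 5 and central minus portal in that order. The values above were 10 and 11, 11 and 8, 11 and 10, 8 and 7, 14 and 8, 6 and 6, and 1 and 6. Total-count scaling gave 45 and 2, 11 and 1, 11 and 1, 21 and 2, 45 and 2, 60 and 3, and 5 and 2, scaling to cell number 34 and 2, 12 and 1, 17 and 1, 27 and 2, 29 and 2, 40 and 3, and 3 and 5, and total counts without Cyp2e1 and Pck1 13 and 3, 12 and 1, 16 and 3, 17 and 3, 17 and 4, 6 and 6, and 1 and 8. A fit of 0h and 48h alone gave 8 and 3, 10 and 7, 12 and 7, 6 and 5, 4 and 2, 3 and 1, and 1 and 2. On slide 1 alone it was 5 and 5, 13 and 8, 7 and 6, 1 and 2, 0 and 0, 6 and 10, and 1 and 7, and with slide as a block 10 and 10, 12 and 8, 9 and 10, 7 and 8, 19 and 13, 10 and 8, and 1 and 5. With the 14 d sections as 1 library there were 11 and 4 in zone 1, 11 and 5 in zone 2 and 6 and 2 in zone 4. DESeq2 gave 11 and 18 in each of zones 1 and 2, 14 and 12 in zone 3 and 5 and 11 in zone 5. Without the low count filter zone 3 had 16 higher. Cells with at least 200 counts gave 5 lower in zone 1, 13 higher in zone 3 and 10 higher in central minus portal, and leaving out marker-bearing cells gave 3 higher there. Tiles in place of cells gave 7 and 4 in each of zones 2 and 4 and 6 higher in central minus portal. Ranking by Cyp1a2 and Gls2 gave 2 lower in zone 3, 7 higher in zone 4, 11 and 12 in zone 5 and 0 and 1 in central minus portal, distance to Glul clusters 7 and 5 in zone 2 and 0 and 1 in central minus portal, and zones 4 and 5 against 1 and 2 together 0 and 18. Where a count of 0 stands here, the edgeR fit had 20 of 84 genes (slide 1, zone 4), 19 of 95 (Cyp1a2 and Gls2), 12 of 95 (distance) and 31 of 97 (joined zones) at an unadjusted p under 0.05 in either direction. Adjusting over the 5 zones together gave 10 higher in zone 4 and 7 lower in zone 5 and moved no other zone's count. The cause of these shifts was not tested.

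Leaving out each section in turn moved the genes higher between 10 and 22 over all cells, 6 and 28, 7 and 24, 7 and 24, 6 and 16 and 5 and 15 in zones 1 to 5, and 1 and 3 in central minus portal. Genes lower moved between 7 and 17, 2 and 11, 6 and 12, 5 and 11, 1 and 11, 4 and 7, and 3 and 14. The lone section of a group is then assumed to vary like the other groups. The highest counts of genes higher over all cells and in zones 1 to 4 came without 0h section 1, and that in zone 5 without 0h section 2.

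The labels give both groups section numbers 1 and 2. With the number as a replicate block the counts were 10 and 6, 11 and 3, 10 and 5, 5 and 3, 7 and 2, 5 and 3, and 1 and 6. Over all cells Lect2 passed at 1.44 while Lyz2 and Wnt10a did not, at -0.85 and -1.36. Nor did Wnt3a at 1.69, Cps1 at -0.87, Hpd at -0.93 and Cyp27a1 at -0.82. As the deviations correlated below 0, the crossed replicate block was also fitted, with 13 and 9, 11 and 6, 13 and 11, 9 and 9, 7 and 8, 8 and 7, and 1 and 8.

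Of 2489 recomputed values of the 117 calls, 1870 kept direction and call, 605 kept the direction without passing and 14 changed sign. With total-count scaling these were C6 at 0.065, Lyz2 at 0.00048, Pon1 at 0.082 and Ptprc at 0.070 in zone 4, and Cps1 at 0.11, Hpd at 0.17 and Pon1 at 0.28 in zone 5. With distance to Glul clusters they were Cyp1a2 at -0.52, Oat at -0.46 and Rgn at -0.81 in zone 1, Rgn at -0.098 in zone 2, and in central minus portal Lect2 at 0.071, Oat at 0.84 and Rgn at 0.13. Over all cells Gstm1, Gstm2, Gstm3, Ccnd1, Ccne1, Cyp2e1 and Cyp8b1 passed in all 18 alternatives. Some genes had too few counts for a firm statement, Ccna1 and Ccnb1 above all, which were below the minimum within the zones.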

Other observations

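Further gene lists showed few calls with TMM scaling. Over all cells none of 3 genes of the IGF axis, 5 of fatty acid metabolism and lipid droplets, 5 of heme and mitochondrial function and 3 glutamine and ornithine enzymes was called, with medians of 0.30, -0.09, 0.31 and 0.31, while edgeR called 21.2% of all genes and DESeq2 called 11 higher and 14 lower. With total-count scaling, under which 45 of 99 genes were higher, these lists had 2, 4, 4 and 2 genes called higher and none lower. In zone 5 the fatty acid and lipid droplet list had 2 of 5 genes called higher, Hsd17b13 and Elovl2, where 6.52% of all genes tested were called higher. Of 6 genes of the urea cycle and gluconeogenesis, Cps1 was called over all cells, and Cps1 and G6pc in zone 5, all lower. Of 5 cytochrome P450 genes, Cyp2e1, Cyp8b1 and Cyp27a1 were called lower over all cells, and in zone 1 Cyp1a2 was called higher. Of all genes tested, 11.1% were called lower over all cells, 6.52% lower in zone 5 and 12.1% higher in zone 1. With total-count scaling over all cells Cps1 at -0.09 and Cyp27a1 at -0.10 did not pass. In the farthest zone by distance to Glul clusters Cyp1a2 was at -0.52, not called.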
